A study of Homo sapiens with 51 samples.

Results

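The clustered protocadherins are cell-surface adhesion proteins of the cadherin superfamily, encoded by the alpha, beta and gamma gene clusters that lie in a row on chromosome 5q31. Their members were taken as every listed gene whose symbol begins with PCDHA, PCDHB, PCDHGA, PCDHGB or PCDHGC followed by its cluster number, which gave 41 of 24033 genes. They are 2 alpha members, 17 beta members and 22 gamma members, the last made of 12 A-type, 7 B-type and 3 C-type genes. In 38 of them (16 beta and all 22 gamma) a value was listed for every library. RNA was measured by sequencing in HMLE, an immortalised human mammary epithelial line labelled wild type, and in HMLE-TWIST1, the same line overexpressing TWIST1, a transcription factor that drives epithelial cells to a mesenchymal state.

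The 51 libraries form 17 groups of 3. Both lines received DMSO, the drug solvent, for 48 h (day 2), or DMSO for 15 h followed by 48 h of fresh medium (day 4). The TWIST1 line was treated for 48 h with chaetocin, a fungal inhibitor of SUV39H-type histone methyltransferases, at 100, 150, 200 or 500 nM, or for 15 h at 80 nM followed by 48 h without drug (the washout group, day 4). Both lines also received dicer-substrate RNA duplexes against SUV39H1 and SUV39H2, the enzymes that write trimethylation of lysine 9 on histone H3, or a scramble duplex, and were taken on day 2 after 1 round of 48 h and on day 4 after a further 48 h. The sources used here do not say which promoter drives TWIST1, whether the line is a clone, or whether replicates were separate cultures, so p-values measure only the spread between these libraries, which may be technical.

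Clustered protocadherins bind identical copies of themselves on the neighbouring cell, and neurons use the combination they display to tell their own branches from those of others. In the alpha and gamma clusters each variable exon has a promoter of its own and is spliced to constant exons shared by its cluster, while each beta gene is a single exon. The promoters are switched on by CTCF and cohesin, which loop them to distant enhancers, and are held silent by DNA methylation and by methylation of histone H3 at lysine 9. The C-type genes at the end of the alpha and gamma clusters follow other rules and are expressed more uniformly than the stochastically chosen A- and B-type genes.

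The promoters of the members show which of them share a sequence. The RefSeq promoter table (GRCh38.p14, whereas reads were counted on hg19) held 250 bases before the start for 34 of the 41 members, and 7 had no entry. The 9-letter run found most often among beta promoters was GGTGGCGCT, present in 12 of the 13 beta members with an entry, against 0.410% of 35093 promoters of the same length searched on both strands. Among A- and B-type gamma promoters the commonest run was GCGCCGCTG, in 9 of 17 members, against 0.969% of all promoters, and neither run was found in the 3 C-type members with an entry. The core CGCT alone, known as the centre of the element near which CTCF binds, occurred in 12 of 13 beta, 17 of 17 gamma A- and B-type and 3 of 3 C-type members, and in 64.8% of all promoters. The runs overlap this core and were chosen as the most frequent among the promoters of each cluster, unlisted genes included, so the counts are descriptions. The windows of the beta members with large differences below, of 2 gamma members that hold their run, and of PCDHGB7, which holds only the core, are given on the plus strand with the run or core in capitals.
PCDHB16, chr5:141182305-141182344: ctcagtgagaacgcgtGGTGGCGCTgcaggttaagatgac
PCDHB12, chr5:141208638-141208677: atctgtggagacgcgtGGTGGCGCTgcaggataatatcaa
PCDHB2, chr5:141094539-141094578: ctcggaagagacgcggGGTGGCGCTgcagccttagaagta
PCDHB10, chr5:141192294-141192333: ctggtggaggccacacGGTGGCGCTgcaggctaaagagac
PCDHB14, chr5:141223258-141223297: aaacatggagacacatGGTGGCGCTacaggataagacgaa
PCDHB5, chr5:141135174-141135205: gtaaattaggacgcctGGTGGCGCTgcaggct
PCDHGB4, chr5:141387613-141387652: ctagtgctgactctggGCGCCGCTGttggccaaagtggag
PCDHGA10, chr5:141412927-141412966: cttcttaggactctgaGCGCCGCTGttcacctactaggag
PCDHGB7, chr5:141417607-141417641: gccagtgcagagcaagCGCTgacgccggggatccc
PCDHB14 holds the same run as PCDHB16 and PCDHB12. Unlike them it was not called between the lines in DMSO, although its day 2 libraries did not overlap. The part of the run in the line differences was not tested.

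The C-type promoters also differed from the rest in base composition. The median G and C content of the 3 C-type members was 60%, with a range of 57.6 to 62.4%, against a median of 39.2% for beta and for A- and B-type gamma members and 58% for all promoters. The median number of CpG pairs, the sites of DNA methylation, was 13 in C-type, 6 in beta and 5 in gamma A- and B-type members and 11 in all promoters. The 250 bases before the start of PCDHB16, the beta member with the largest line difference below, hold 6 CpG pairs and are given with each CpG in capitals.
PCDHB16, chr5:141182137-141182386: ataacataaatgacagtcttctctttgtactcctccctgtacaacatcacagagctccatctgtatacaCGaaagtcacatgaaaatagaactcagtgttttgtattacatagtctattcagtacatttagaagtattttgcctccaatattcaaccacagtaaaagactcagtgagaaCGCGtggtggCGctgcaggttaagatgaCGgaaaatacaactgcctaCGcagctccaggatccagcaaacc

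Libraries held 7897060 to 15662385 reads in listed genes. TWIST1 was higher in the TWIST1 line by 5.47 to 6.68 on the log2 scale in the 4 control comparisons. In the knockdown groups SUV39H1 was lower by 0.90 to 1.40 and SUV39H2 by 0.39 to 1.21 on the log2 scale, each past the test. All 8 epithelial markers fell and all 8 mesenchymal markers rose in the TWIST1 line in DMSO at day 2. Of 12 neuronal markers, 10 were listed, with summed levels of 43.1 to 275 CPM, and ELAVL4 and DCX stayed under 1 CPM in every library. The 6 endothelial markers summed to at most 17.2 CPM, with PECAM1 unlisted.

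How reads were assigned bears on which members can be read singly. In the GENCODE annotation 21 of 22 gamma genes share exons with another member (median 2181 bases), and both alpha genes do (2866 and 2924 bases), whereas the beta genes share none. The rule by which reads on shared exons were assigned, and whether strand was used, are not given in the sources used here. Differences between single gamma or alpha genes are therefore uncertain. So are those of the 10 beta, 2 gamma and 1 alpha genes with an antisense exon across them. Among these are PCDHB16 (815 bases under antisense exons), PCDHB2 (620), PCDHB5 (501) and PCDHB10 (45), while PCDHB12, PCDHB13 and PCDHB14 have 0. The 50-base stretches of a beta gene that recur in another member made up from 4.24% of PCDHB19P to 45.8% of PCDHB8, with 35.4% for PCDHB10, 12.8% for PCDHB12 and 11.3% for PCDHB16.

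PCDHGC3, the gamma C-type gene known for expression outside the nervous system, had the highest level per length of the members in all 17 groups. Its level was 9.59 ± 0.24 RPKM (SD, n = 3; reads per kilobase of gene, scaled for depth as CPM is) in HMLE and 13.2 ± 1.63 RPKM in the TWIST1 line in DMSO at day 2. The next highest in HMLE were PCDHB14 at 1.11 ± 0.24 RPKM and PCDHGA10 at 1.07 ± 0.25 RPKM, whose libraries overlapped each other and lay far below PCDHGC3. In the TWIST1 line PCDHGB7 came second at 3.30 ± 0.28 RPKM, above the highest library of PCDHB10 (2.71 ± 0.49 RPKM), while PCDHB10, PCDHB12, PCDHGA10 and PCDHB14 overlapped. PCDHGC3 made up 57.6% of summed gamma CPM in HMLE and 39.6% in the TWIST1 line.

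The beta sum was several fold higher in the TWIST1 line in each control setting, and the gamma sum was higher in 3 of the 4. The 16 beta genes listed in all libraries summed to 16.7, 13.4 and 12.3 CPM (read counts scaled to a common depth by trimmed means) in HMLE and 77.4, 64.7 and 57.0 CPM in the TWIST1 line in DMSO at day 2, a 4.68-fold difference with no overlap. The same ratio was 3.74-fold in DMSO at day 4, 3.03-fold in scramble at day 2 and 2.34-fold in scramble at day 4. The 22 gamma genes summed to 78.5 ± 3.25 CPM in HMLE and 156.8 ± 6.80 CPM in the TWIST1 line in DMSO at day 2, a ratio of 2.00. That ratio was 1.42 in DMSO at day 4 and 1.40 in scramble at day 2. In scramble at day 4 the order of the gamma sums turned, with 224, 243 and 251 CPM in HMLE and 110, 105 and 115 CPM in the TWIST1 line. In bulk RNA, fewer cells with a transcript and less of it per cell cannot be told apart. Sums have no test here, since the members were chosen with earlier results known.

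**Figure D1:**
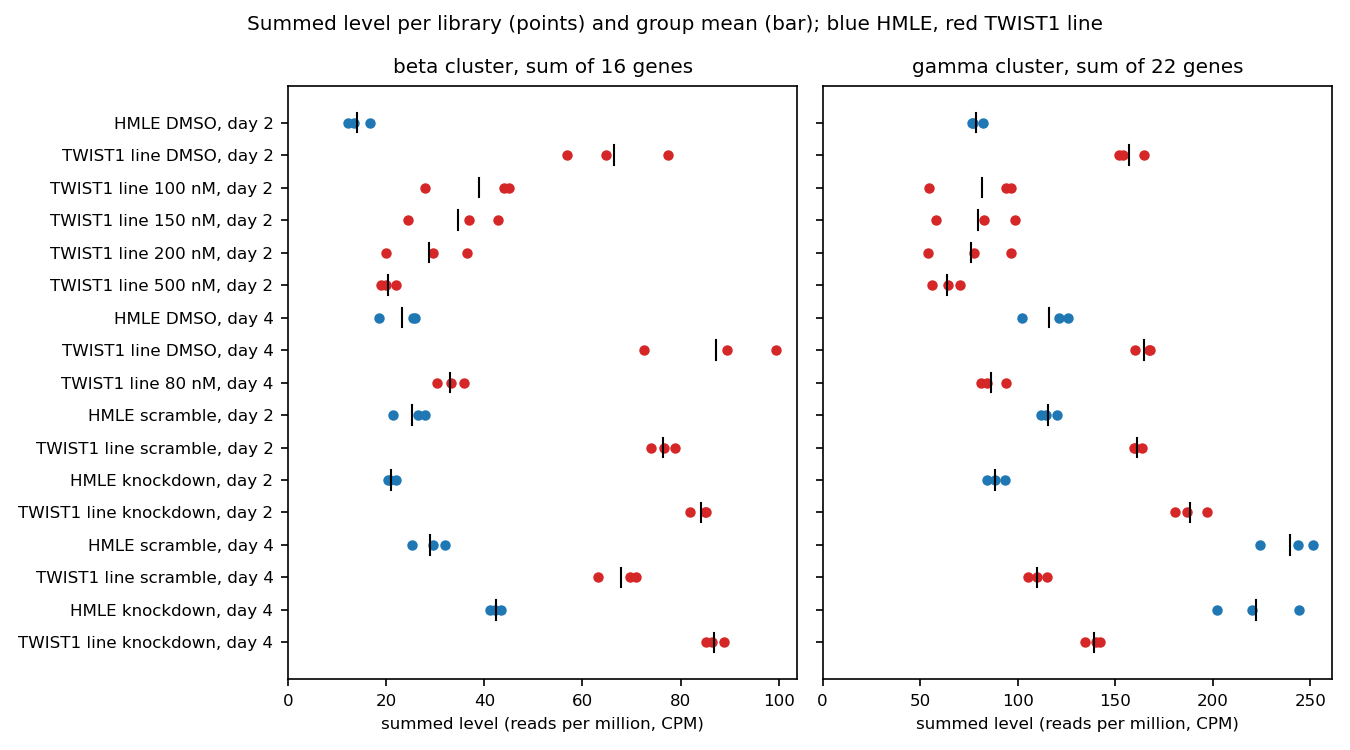
Summed CPM of the 16 beta and 22 gamma members listed in all libraries, by group; points are libraries, bars are means of 3, blue is HMLE and red the TWIST1 line. Beta sums are higher in the TWIST1 line in each control setting, and HMLE scramble at day 4 has the highest gamma mean (239.6 CPM).

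Between the lines in DMSO at day 2, 29 of the 33 members tested were higher in the TWIST1 line and none passed as lower, where 24.1% of all 18801 genes tested were higher. The 33 are the members past a filter of 10 reads in at least 3 libraries, which favours those that are high in some group, so counts describe only them. All 33 differences were positive. Of 11 beta members tested 10 were called as higher, with a median log2 difference of 2.21, against 0.01 over all genes. Of 22 gamma members 19 were called as higher, with a median of 1.46: 11 of 12 A-type, 7 of 7 B-type and 1 of 3 C-type.

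PCDHB16 had the largest called difference among beta members. It stood at 0.511, 0.274 and 0.405 CPM in HMLE and at 13.3, 9.39 and 10.9 CPM in the TWIST1 line, which do not overlap. The log2 difference was 4.31 (SE 0.32, adjusted p = 4.7e-09), on log2 CPM with a prior count of 2, as are all log2 differences given here. PCDHB12 went from 0.585, 0.686 and 0.486 CPM to 9.33, 9.46 and 6.56 CPM, a log2 difference of 3.48 (SE 0.36, adjusted p = 3.3e-07). PCDHB2 went from 0.731, 1.03 and 0.973 CPM to 6.12, 4.55 and 4.40 CPM (log2 2.24, SE 0.26). Both pairs of groups were separate. PCDHB10, the beta gene with the highest mean level per length in the TWIST1 line, had a smaller difference of log2 1.43 (SE 0.27, adjusted p = 0.00027).

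PCDHB5 had no read in the HMLE DMSO libraries of day 2, in 40711041 reads, which allows a level of up to 0.0739 CPM. It had 12, 15 and 15 reads in the TWIST1 line, at least 15.5-fold higher when 3 reads over the group are taken as the floor. The bound was 15.6-fold in DMSO at day 4 (0 of 32318342 reads, up to 0.104 CPM) and 15.3-fold in scramble at day 4 (0 of 38254361 reads, up to 0.0972 CPM). These floors cover counting error only. PCDHB14 was the beta member tested that was not called in DMSO. At day 2 it stood at 3.73, 3.57 and 2.43 CPM in HMLE and 7.63, 6.60 and 6.87 CPM in the TWIST1 line, which do not overlap.

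Among gamma members PCDHGB4, a B-type gene, had the largest difference. It stood at 0.804, 0.411 and 0.243 CPM in HMLE and 7.32, 5.28 and 6.33 CPM in the TWIST1 line in DMSO at day 2 (log2 3.36, SE 0.28, adjusted p = 1.6e-08). PCDHGB7, the B-type gene with the highest level, went from 4.82, 2.88 and 3.57 CPM to 15.1, 16.5 and 14.0 CPM (log2 1.98, SE 0.45, adjusted p = 0.0015). Both rose in each of the 3 TWIST1 libraries above the highest HMLE library. The A-type gene PCDHGA6 rose by a log2 of 2.13 (SE 0.31), and PCDHGA10, the A-type gene with the highest level, by 1.15 (SE 0.35, adjusted p = 0.011). The pseudogene PCDHGB8P was also called as higher. Without the second HMLE replicate PCDHGA10 was not called (log2 0.93, adjusted p = 0.063).

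Of the C-type genes PCDHGC4 was called. PCDHGC3 stood at 46.5, 44.8 and 44.4 CPM in HMLE and 67.3, 53.4 and 65.9 CPM in the TWIST1 line, a log2 difference of 0.44 (SE 0.20, adjusted p = 0.084) that was not called although the libraries did not overlap. It was called with the deposited values as they are (adjusted p = 0.0065), with precision weights (0.042) and with the replicate number as a block (0.035). PCDHGC4, known in mice for supporting the survival of neurons, rose by a log2 of 1.57 (SE 0.33, adjusted p = 0.00078). PCDHGC5 had a log2 difference of 0.68 (SE 0.42, adjusted p = 0.20), and over all 51 libraries it had 2 to 28 reads in each.

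**Figure D2:**
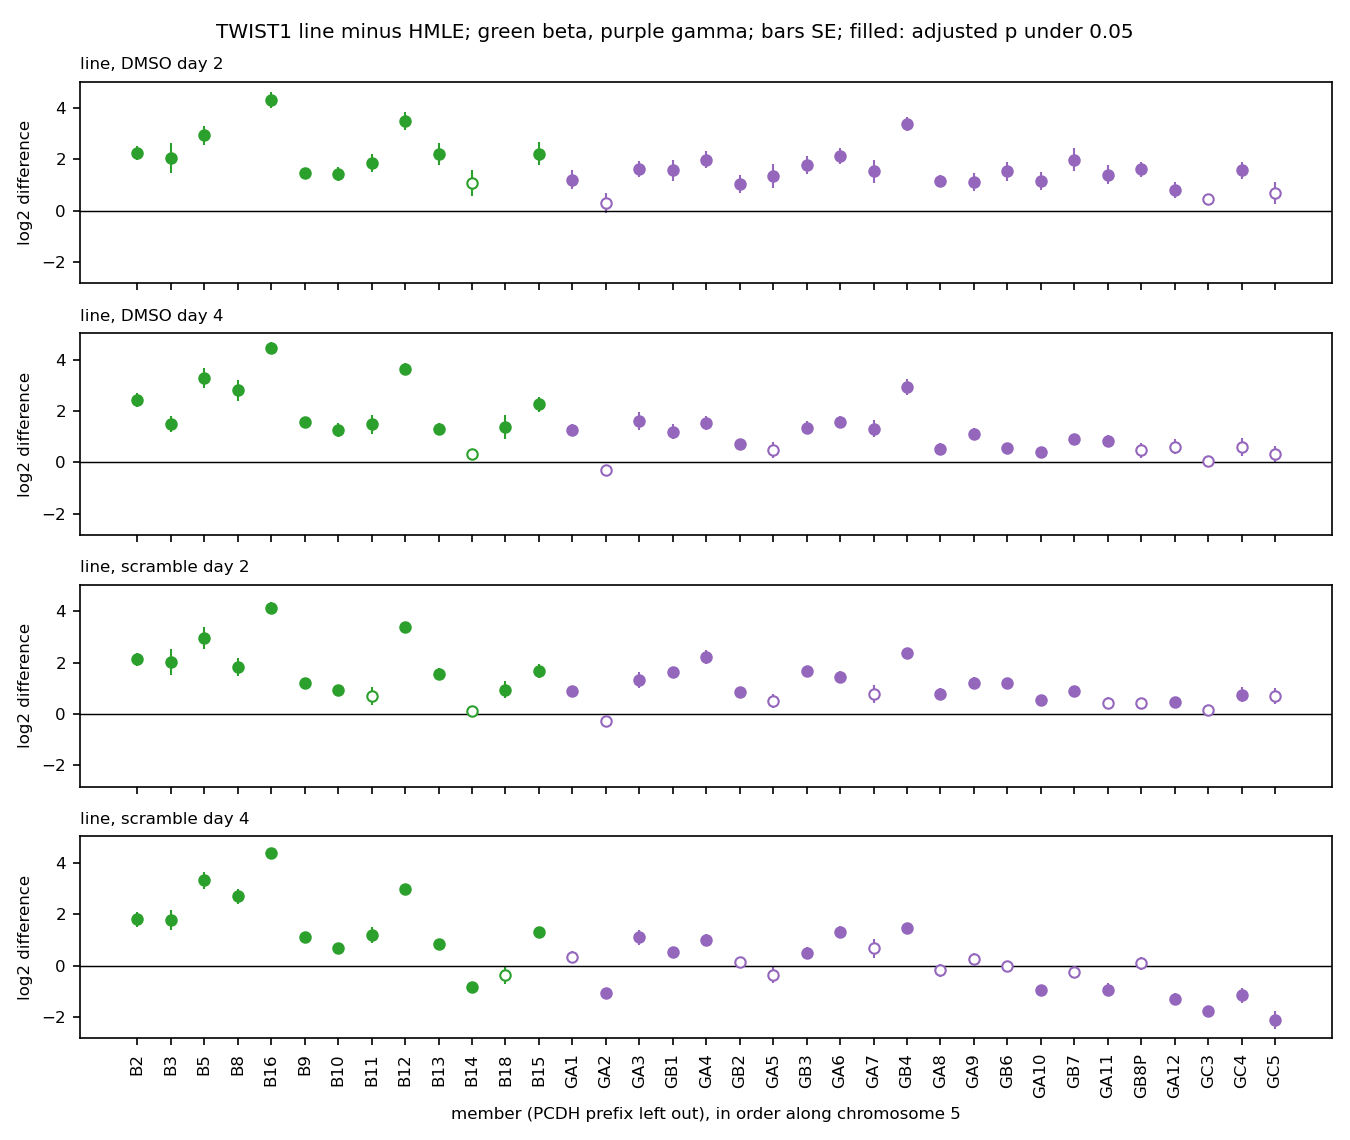
Log2 difference (TWIST1 line minus HMLE) of each tested beta (green) and gamma (purple) member in chromosome order, in the 4 control settings; bars are standard errors and filled points have adjusted p under 0.05. Beta members lie mostly above 0 in each setting, and gamma members spread around 0 in scramble at day 4.

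The other control settings gave the same direction for beta members. In DMSO at day 4, 27 of 35 members tested were higher (33.5% of all genes), with 12 of 13 beta at a median of 1.57 and 15 of 22 gamma at 0.77. In scramble at day 2, 27 of 36 were higher (35.7% of all genes), with 11 of 13 beta at a median of 1.67 and 15 of 22 gamma at 0.83. In scramble at day 4, 18 of 36 were higher, near the 37.6% of all genes, and 8 were lower, against 36.8% of all genes. The 18 were 11 of 13 beta members, 6 gamma members and PCDHAC2, and the 8 were PCDHB14 and 7 gamma members, among them all 3 C-type genes. The median there was 1.29 for beta and 0.02 for gamma members.

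Called as higher in each of the 4 settings were 15 of the 33 members tested in all of them, where 18.6% of all genes tested in each were. They were the beta genes PCDHB2, PCDHB3, PCDHB5, PCDHB9, PCDHB10, PCDHB12, PCDHB13, PCDHB15 and PCDHB16, the A-type genes PCDHGA3, PCDHGA4 and PCDHGA6, and the B-type genes PCDHGB1, PCDHGB3 and PCDHGB4. PCDHB5 had no read in HMLE in DMSO on either day or in scramble at day 4. In DMSO at day 2 it passed the filter only through the TWIST1 line, so its place in this count is a description. PCDHB16 had log2 differences of 4.31, 4.46, 4.13 and 4.38 across the settings, and PCDHB12 of 3.48, 3.65, 3.37 and 2.96. PCDHGB4 had 3.36, 2.92, 2.36 and 1.46. Thus PCDHB16 was nearly level across settings while the value of PCDHGB4 was lowest in scramble at day 4, and the libraries of the lines did not overlap there either (1.52, 1.22 and 1.01 CPM against 3.10, 3.86 and 4.24 CPM).

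PCDHGC3 changed its order between the lines in scramble at day 4. It stood at 152, 172 and 176 CPM in HMLE and 53.6, 42.7 and 48.5 CPM in the TWIST1 line, a log2 difference of -1.79 (SE 0.09, adjusted p = 6.3e-12). In scramble at day 2 the values were 62.0, 62.7 and 72.8 CPM in HMLE and 70.9, 70.9 and 68.9 CPM in the TWIST1 line (log2 0.14, SE 0.07, adjusted p = 0.083), with overlap, and without the third HMLE replicate it was called (log2 0.21, adjusted p = 0.018). In DMSO at day 4 they were 66.8, 66.9 and 49.6 CPM and 59.3, 63.7 and 71.9 CPM (log2 0.06, SE 0.12, adjusted p = 0.69), again with overlap, and the sign turned without the third replicate of HMLE (log2 -0.089) or of the TWIST1 line (-0.01). Its level in HMLE scramble at day 4 was thus the highest of the 8 control groups.

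PCDHGC5, PCDHGC4 and PCDHGA12 showed the same order in scramble at day 4. PCDHGC5 stood at 2.66, 2.01 and 2.81 CPM in HMLE and 0.147, 0.605 and 0.744 CPM in the TWIST1 line (log2 -2.13, SE 0.35, adjusted p = 3.0e-05). PCDHGC4 had a log2 difference of -1.15 (SE 0.29, adjusted p = 0.0018) and the A-type gene PCDHGA12 of -1.31 (SE 0.22, adjusted p = 3.9e-05). PCDHB14 was the beta member called as lower, at 8.73, 7.60 and 9.12 CPM in HMLE and 4.28, 5.15 and 4.61 CPM in the TWIST1 line (log2 -0.84, SE 0.16, adjusted p = 0.0001). Without PCDHGC3 the gamma sum was 73.1 CPM in HMLE and 61.7 CPM in the TWIST1 line.

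**Figure D3:**
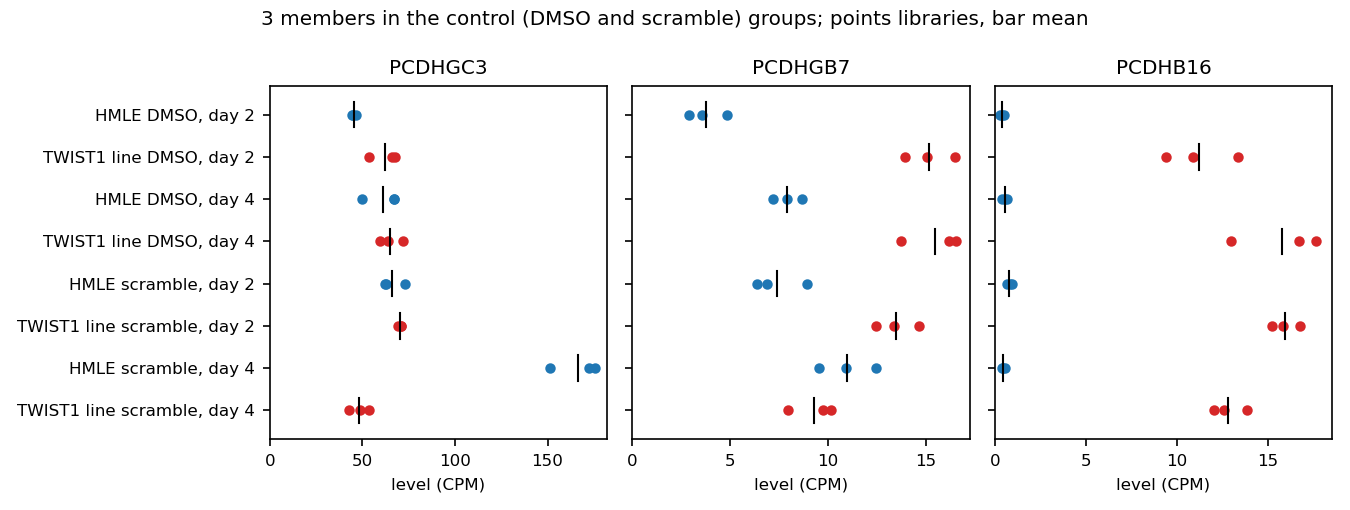
CPM of PCDHGC3, PCDHGB7 and PCDHB16 in the 8 control groups (DMSO and scramble, day 2 and day 4, both lines); points are libraries and bars are means of 3. PCDHGC3 reaches 152 to 176 CPM in HMLE scramble at day 4, while PCDHB16 is higher in the TWIST1 line in every setting.

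Day 4 was compared with day 2 within the scramble groups after these levels had been seen. In HMLE 12 of 38 members tested were higher on day 4 (21.7% of all genes), 10 of them gamma, and PCDHB16 and PCDHB7 were lower, calls lost in 2 and 4 of the 6 fits without 1 replicate. PCDHGC3 rose by a log2 of 1.33 (SE 0.08, adjusted p = 5.0e-13), PCDHGC5 by 1.499 (SE 0.34, adjusted p = 0.00073) and PCDHGC4 by 1.14 (SE 0.29, adjusted p = 0.0021). In the TWIST1 line 10 of 38 were lower on day 4 (15.4% of all genes), 9 of them gamma, and PCDHAC2 was higher, a call lost in 3 of 6 such fits. PCDHGC3 fell by 0.55 (SE 0.08, adjusted p = 9.6e-06) and PCDHGA12 by 1.32 (SE 0.20, adjusted p = 1.1e-05) on the log2 scale. All 22 gamma members had a negative difference in the TWIST1 line, with a median of -0.55, whereas the median of the beta members was -0.13.

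The test of the difference between the lines in this change called 18 of 38 members as lower in the TWIST1 line (17.8% of all genes). They were 16 of 22 gamma and 2 of 15 beta members, PCDHB14 and PCDHB18, the latter lost in 7 of 12 fits without 1 replicate. PCDHGC3 had a difference of changes of -1.89 on the log2 scale (SE 0.12, adjusted p = 1.4e-12), PCDHGC5 of -2.79 (SE 0.48), PCDHGC4 of -1.86 (SE 0.41), PCDHGA10 of -1.47 (SE 0.24) and PCDHGB7 of -1.11 (SE 0.20). The neuronal markers summed to 141 to 160 CPM at day 2 and 255 to 275 CPM at day 4 in HMLE. In the TWIST1 line they summed to 72.6 to 77.7 CPM and 116 to 123 CPM. Of the 7 tested, 1 was higher and 0 lower on day 4 in HMLE, with a median log2 difference of 0. In the TWIST1 line 1 was higher and 1 lower (median -0.05), so the sums do not stand for the markers as a set.

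Beta and gamma members were lower in the TWIST1 line after 48 h of chaetocin. Against DMSO, 11 of 33 members tested were lower at 100 nM (11.8% of all genes), 13 at 150 nM (16.5% of all genes), 17 at 200 nM (19.1% of all genes) and 21 at 500 nM (24.7% of all genes). At 100 nM and at 500 nM the differences of the 33 were all negative. The beta median was -1.02, -1.14, -1.18 and -1.80 on the log2 scale at the 4 doses, and the gamma median -0.70, -0.63, -0.69 and -0.84, while the median of all genes stayed between 0.01 and 0.02. At 500 nM 11 of 11 beta members were called as lower, against 3 of 12 A-type, 5 of 7 B-type and 2 of 3 C-type gamma members. The dose libraries and the DMSO libraries belong to separately made parts of the deposited table, so batch and treatment cannot be told apart in these comparisons.

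The summed beta level was 66.3 CPM in DMSO and 39.0, 34.7, 28.7 and 20.3 CPM at 100, 150, 200 and 500 nM, or 0.306 of DMSO at the highest dose. The gamma sum was 156.8 CPM in DMSO and 81.8, 79.7, 76.0 and 63.6 CPM at the doses, 0.406 of DMSO at 500 nM. The first replicates of 100, 150 and 200 nM lay lowest in their groups for both sums, with 27.9, 24.4 and 20.1 CPM for beta and 54.8, 58.0 and 54.2 CPM for gamma. Without those 3 libraries 8, 10, 10 and 24 members were lower at 100, 150, 200 and 500 nM. Leaving out only the first replicate of the group in question gave 3 at 100 nM, 5 at 150 nM and 8 at 200 nM.

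PCDHGC3 fell at each dose. It stood at 67.3, 53.4 and 65.9 CPM in DMSO, at 21.9, 28.2 and 30.8 CPM at 100 nM, and at 13.5, 17.3 and 15.0 CPM at 500 nM. The log2 differences were -1.23 (SE 0.20, adjusted p = 0.00045), -1.55, -1.79 and -2.05 (SE 0.20, adjusted p = 8.4e-07) from the lowest to the highest dose, and no dosed library reached a DMSO library. Its share of the gamma sum was 24.1% at 500 nM. PCDHGC5 was called at 500 nM (log2 -1.11, SE 0.42, adjusted p = 0.037) but not in 4 of 5 fits without 1 replicate (adjusted p = 0.051 to 0.16), and PCDHGC4 at no dose, with -0.65, -0.45, -0.68 and -0.81 (adjusted p = 0.053 at 500 nM, and 0.043 there with the replicate block). Without the third 200 nM replicate PCDHGC4 was called at that dose (log2 -0.96, adjusted p = 0.039).

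PCDHGB7 stood at 15.1, 16.5 and 14.0 CPM in DMSO, 2.04, 5.38 and 8.13 CPM at 100 nM and 2.74, 3.24 and 4.01 CPM at 500 nM. Its log2 differences were -1.73, -1.93, -1.90 and -2.18 (SE 0.45, adjusted p = 0.00079 at 500 nM), and all dosed libraries lay below DMSO. PCDHB13 went from 9.63, 7.26 and 6.56 CPM in DMSO to 1.70, 3.14 and 3.45 CPM at 100 nM and 0.822, 1.18 and 1.72 CPM at 500 nM, with log2 differences of -1.50 at 100 nM and -2.56 (SE 0.43, adjusted p = 0.00014 at 500 nM). PCDHB10 fell from 9.73, 9.83 and 7.02 CPM to 2.74, 2.16 and 2.48 CPM at 500 nM (log2 -1.80, SE 0.27, adjusted p = 4.3e-05). Without the first 100 nM replicate the calls at 100 nM were lost for PCDHGB7 (log2 -1.18, adjusted p = 0.055) and PCDHB13 (log2 -1.20, adjusted p = 0.092), the latter also without the first DMSO replicate (log2 -1.35, adjusted p = 0.076).

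Of the beta members with the largest line differences, PCDHB12 fell from 9.33, 9.46 and 6.56 CPM in DMSO to 2.56, 1.77 and 1.43 CPM at 500 nM (log2 -2.09). PCDHB16 stood at 3.84, 5.51 and 5.92 CPM at 500 nM, against 9.39 to 13.3 CPM in DMSO and 0.274 to 0.511 CPM in HMLE with DMSO. The 500 nM libraries of PCDHB16 thus lay between those of the 2 DMSO groups without overlap.

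Inside the dose libraries, 500 nM against 100 nM called 4 of 33 members as lower (7.90% of all genes): PCDHB9 (log2 -0.87, SE 0.20, adjusted p = 0.01), PCDHB10 (-0.92, SE 0.27, adjusted p = 0.028), PCDHB2 (-0.84, SE 0.26, adjusted p = 0.035) and PCDHGC3 (-0.82, SE 0.20, adjusted p = 0.012). All 11 beta members and 14 of 22 gamma members had a negative difference, with medians of -0.84 and -0.11. PCDHB9 stood at 6.12, 6.90 and 5.59 CPM at 100 nM and 3.20, 2.75 and 4.20 CPM at 500 nM, and PCDHB2 at 3.85, 5.29 and 3.94 CPM and 3.01, 2.06 and 2.10 CPM, both without overlap. In the dose groups the replicate numbers pair the libraries, and with that number as a block in the 12 dose libraries 8 members were called, against 16.7% of all genes. PCDHB10 and PCDHB2 were not called without the second or the third replicate of either dose (adjusted p = 0.063 to 0.14), PCDHB9 without the second 500 nM replicate (0.065) and PCDHGC3 without the third 100 nM replicate (0.066). In that last fit 1 member was called, and without the first replicates of 100, 150 and 200 nM 11 were.

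After 15 h at 80 nM and 48 h without drug, 24 of 35 members tested were lower than in DMSO of day 4, against 17.2% of all genes, and all 35 differences were negative. Both groups lie in one part of the table. They were 12 of 13 beta members, with a median of -1.52, and 12 of 22 gamma members, with a median of -0.72. The beta sum was 33.1 CPM, 0.380 of DMSO, and the gamma sum 86.5 CPM, 0.525 of DMSO. Without the third DMSO replicate 15 members were called.

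PCDHB14, not called between the lines in DMSO, was among the members with the smallest p after washout. It went from 9.82, 7.89 and 7.67 CPM in DMSO to 2.40, 2.67 and 1.81 CPM after washout (log2 -1.80, SE 0.19, adjusted p = 5.7e-06). PCDHB12 went from 13.8, 10.6 and 11.0 CPM to 4.45, 3.18 and 2.98 CPM (log2 -1.69, SE 0.23, adjusted p = 6.6e-05). PCDHGB7 went from 13.7, 16.2 and 16.6 CPM to 4.94, 6.36 and 5.52 CPM (log2 -1.42, SE 0.14, adjusted p = 4.9e-06), and in all of these the groups were separate. PCDHGC3 fell from 59.3, 63.7 and 71.9 CPM to 29.5, 36.6 and 30.6 CPM (log2 -0.99, SE 0.12, adjusted p = 4.1e-05), also without overlap. PCDHGC4 (log2 -0.31, adjusted p = 0.52) and PCDHGC5 (log2 -0.18, adjusted p = 0.71) were not called.

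Lower at all 4 doses and after washout were 9 of the 33 members tested throughout, against 7.81% of all genes: PCDHB5, PCDHB10, PCDHB11, PCDHB12, PCDHB13, PCDHGA2, PCDHGB3, PCDHGB7 and PCDHGC3. The 4 dose comparisons share their DMSO libraries, so this count is not built from independent comparisons. It also rests on the first 100 nM replicate, without which 3 members were called at 100 nM. Of those followed singly at that dose, PCDHB5, PCDHB10, PCDHB13, PCDHGB3 and PCDHGB7 then lost their call. PCDHB12 and PCDHGA2 were not followed singly there. PCDHB5 passed the filter only through its DMSO libraries in the TWIST1 line. With a prior count of 0.5 it was not called at 100 nM (adjusted p = 0.0865). The mesenchymal markers moved with the members: the 8 summed to 27599 to 32518 CPM in DMSO at day 2 and 6600 to 8657 CPM at 500 nM, and to 26616 to 33318 CPM in DMSO at day 4 and 13663 to 20093 CPM after washout. The epithelial markers summed to 142 to 171 CPM in DMSO at day 2 and 183 to 352 CPM at 500 nM, with 5 of 8 higher and 2 lower, and to 95.5 to 134 CPM and 216 to 221 CPM around the washout, with 5 of 8 higher. At 500 nM 3 of 6 neuronal markers tested were higher and 1 lower, and 2 of 3 endothelial markers were higher. Of all 18801 genes 4889 were higher and 4652 lower at 500 nM, and of all 17585 genes 3412 were higher after washout. TWIST1 fell by 1.26 on the log2 scale at 500 nM (SE 0.23, adjusted p = 0.00033). The part of these markers and of TWIST1 in the result was not tested.

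**Figure D4:**
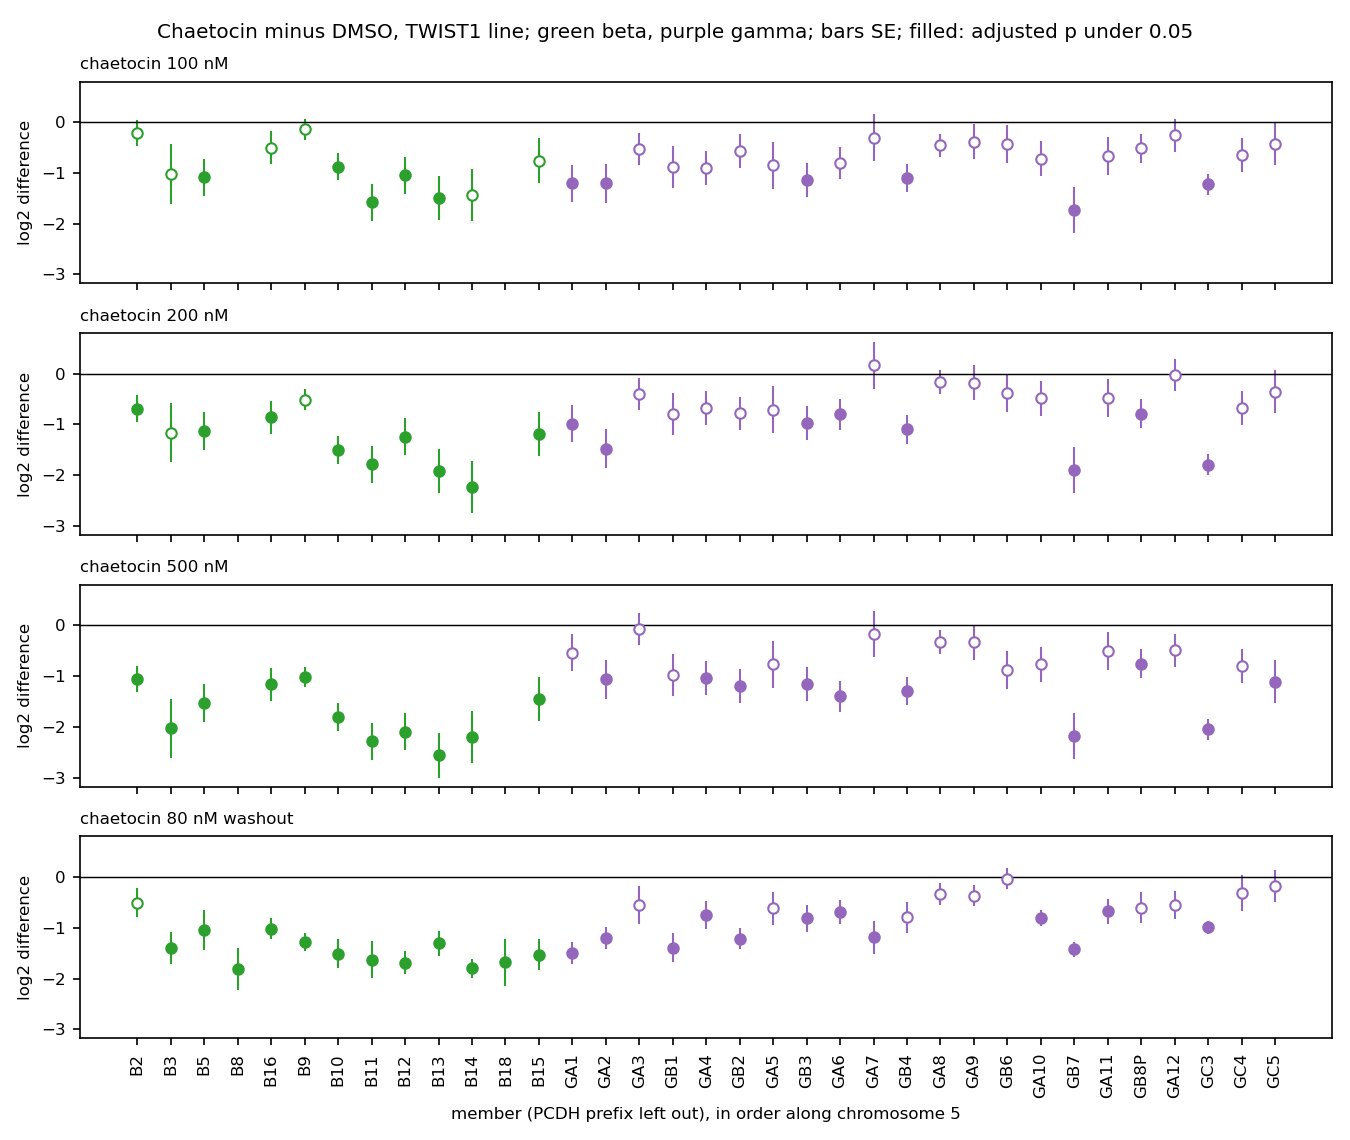
Log2 difference from DMSO of each tested beta (green) and gamma (purple) member in chromosome order, at 100, 200 and 500 nM and after the 80 nM washout, in the TWIST1 line; bars are standard errors and filled points have adjusted p under 0.05. At 100 nM, at 500 nM and after washout the points all lie below 0, and the beta points lie lowest at 500 nM.

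After knockdown of SUV39H1 and SUV39H2 between 2 and 13 of 36 members tested were called in the direction described for each line and day, and in HMLE these shares lay near those of all genes. On day 2 in HMLE 6 of 36 members tested were lower (14.7% of all genes), namely PCDHB8, PCDHB11, PCDHGA8, PCDHGA9, PCDHGB7 and PCDHGC3, and PCDHAC2 was higher. PCDHGC3 went from 62.0, 62.7 and 72.8 CPM to 46.5, 46.1 and 53.0 CPM (log2 -0.41, SE 0.07, adjusted p = 0.00028). PCDHGA8, an A-type gene, went from 1.28, 2.02 and 2.06 CPM to 0.789, 0.773 and 0.691 CPM (log2 -1.05, SE 0.22, adjusted p = 0.0017). In both the groups were separate. Without 1 replicate PCDHGC3, PCDHGA8 and PCDHGB7 stayed called in 6 of 6 fits, while PCDHB8, PCDHGA9 and PCDHB11 were lost in 4, 4 and 3 of them, and without the second scramble replicate 3 members were lower.

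On day 2 in the TWIST1 line PCDHGC3 and PCDHAC2 were higher, 2 of 36 members tested, below the 7.53% of all genes. PCDHGC3 rose from 70.9, 70.9 and 68.9 CPM to 86.0, 88.6 and 97.3 CPM (log2 0.36, SE 0.07, adjusted p = 0.0016). The knockdown change was higher in the TWIST1 line than in HMLE for 3 of 36 members (6.36% of all genes). These were PCDHGC3 (difference of log2 changes 0.76, SE 0.10, adjusted p = 9.2e-05), PCDHGB7 (0.74, SE 0.20, adjusted p = 0.021) and PCDHGA8 (1.06, SE 0.31, adjusted p = 0.034). PCDHGB7 showed this as a fall in HMLE from 6.88, 8.95 and 6.36 CPM to 4.37, 5.26 and 5.09 CPM, beside 14.7, 13.4 and 12.4 CPM in scramble and 15.1, 14.0 and 18.1 CPM in knockdown of the TWIST1 line, where it was not called. Without the third TWIST1 scramble replicate 1 of the 3 calls was made, with PCDHGB7 at 0.68 (adjusted p = 0.059), and the call of PCDHGA8 was lost in 6 of 12 fits without 1 replicate.

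On day 4 in HMLE 6 of 36 members were higher (11.7% of all genes): PCDHB9, PCDHB10, PCDHB12, PCDHB13, PCDHB16 and PCDHGA6. PCDHB9 rose from 4.84, 3.41 and 4.50 CPM to 6.69, 8.06 and 8.98 CPM (log2 0.86, SE 0.19, adjusted p = 0.0022), and PCDHB12 from 0.949, 0.611 and 1.13 CPM to 1.72, 1.59 and 1.34 CPM (log2 0.70, SE 0.21, adjusted p = 0.017). Neither pair of groups overlapped, but PCDHB12 was not called without the second scramble replicate (log2 0.49, adjusted p = 0.074) or the first knockdown replicate (0.64, adjusted p = 0.057). The beta sum was 25.2 to 32.1 CPM in scramble and 41.2 to 43.5 CPM after knockdown, and 12 of 13 beta members had a positive difference, with a median of 0.54, against 0.08 for the gamma members. PCDHGC3 was not called (log2 -0.19, SE 0.09, adjusted p = 0.14). With precision weights 2 of these members were called and PCDHB16 was not (adjusted p = 0.14).

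On day 4 in the TWIST1 line 13 of 36 members were higher (19.0% of all genes), 3 beta and 10 gamma. PCDHGB2, a B-type gene, rose by a log2 of 0.76 (SE 0.17, adjusted p = 0.0022). PCDHGA12 went from 1.18, 1.66 and 1.19 CPM to 2.69, 2.86 and 2.54 CPM (log2 0.92, SE 0.22, adjusted p = 0.0032), and PCDHGB4 from 3.10, 3.86 and 4.24 CPM to 6.49, 5.93 and 6.49 CPM (log2 0.73, SE 0.20, adjusted p = 0.0094). In both the groups were separate. PCDHGC5 rose from 0.147, 0.605 and 0.744 CPM to 1.35, 1.57 and 0.895 CPM (log2 1.21, SE 0.35, adjusted p = 0.012; without the first scramble replicate 0.76, adjusted p = 0.062), while PCDHGC3 was not called, at 53.6, 42.7 and 48.5 CPM and 49.0, 53.4 and 53.5 CPM (log2 0.10, SE 0.09, adjusted p = 0.44). The gamma median was 0.56, with 20 of 22 members positive, and the beta median 0.18.

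PCDHB16 was the 1 member of 36 called as higher in both lines on day 4, where 5.80% of all genes were. It went from 0.38, 0.437 and 0.563 CPM to 0.995, 0.749 and 0.86 CPM in HMLE (log2 0.72, SE 0.18, adjusted p = 0.0063) and from 12.02, 13.8 and 12.6 CPM to 20.2, 21.7 and 19.2 CPM in the TWIST1 line (log2 0.65, SE 0.18, adjusted p = 0.0081). The groups were separate in both lines, and knockdown left HMLE far below the TWIST1 line. PCDHB2 rose in the TWIST1 line from 5.16, 4.46 and 3.42 CPM to 8.23, 6.89 and 8.06 CPM (log2 0.81, SE 0.28, adjusted p = 0.03), a call lost in 3 of 6 fits without 1 replicate. The knockdown change was higher in the TWIST1 line than in HMLE for PCDHGC5 (difference of log2 changes 1.48, SE 0.50, adjusted p = 0.042) and PCDHGA12 (0.92, SE 0.32, adjusted p = 0.043), 2 of 36 members against 12.2% of all genes, and these calls were lost in 7 and 8 of 12 fits without 1 replicate (adjusted p = 0.054 to 0.11). The mesenchymal marker sum was 20744 to 22458 CPM in scramble and 11506 to 11690 CPM after knockdown in the TWIST1 line on day 4. Of the 8 markers 4 were lower and 1 higher, with a median log2 difference of -0.24, where 3411 of all 17985 genes were lower and 3421 higher. The part of these markers in the changes of the members was not tested.

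**Figure D5:**
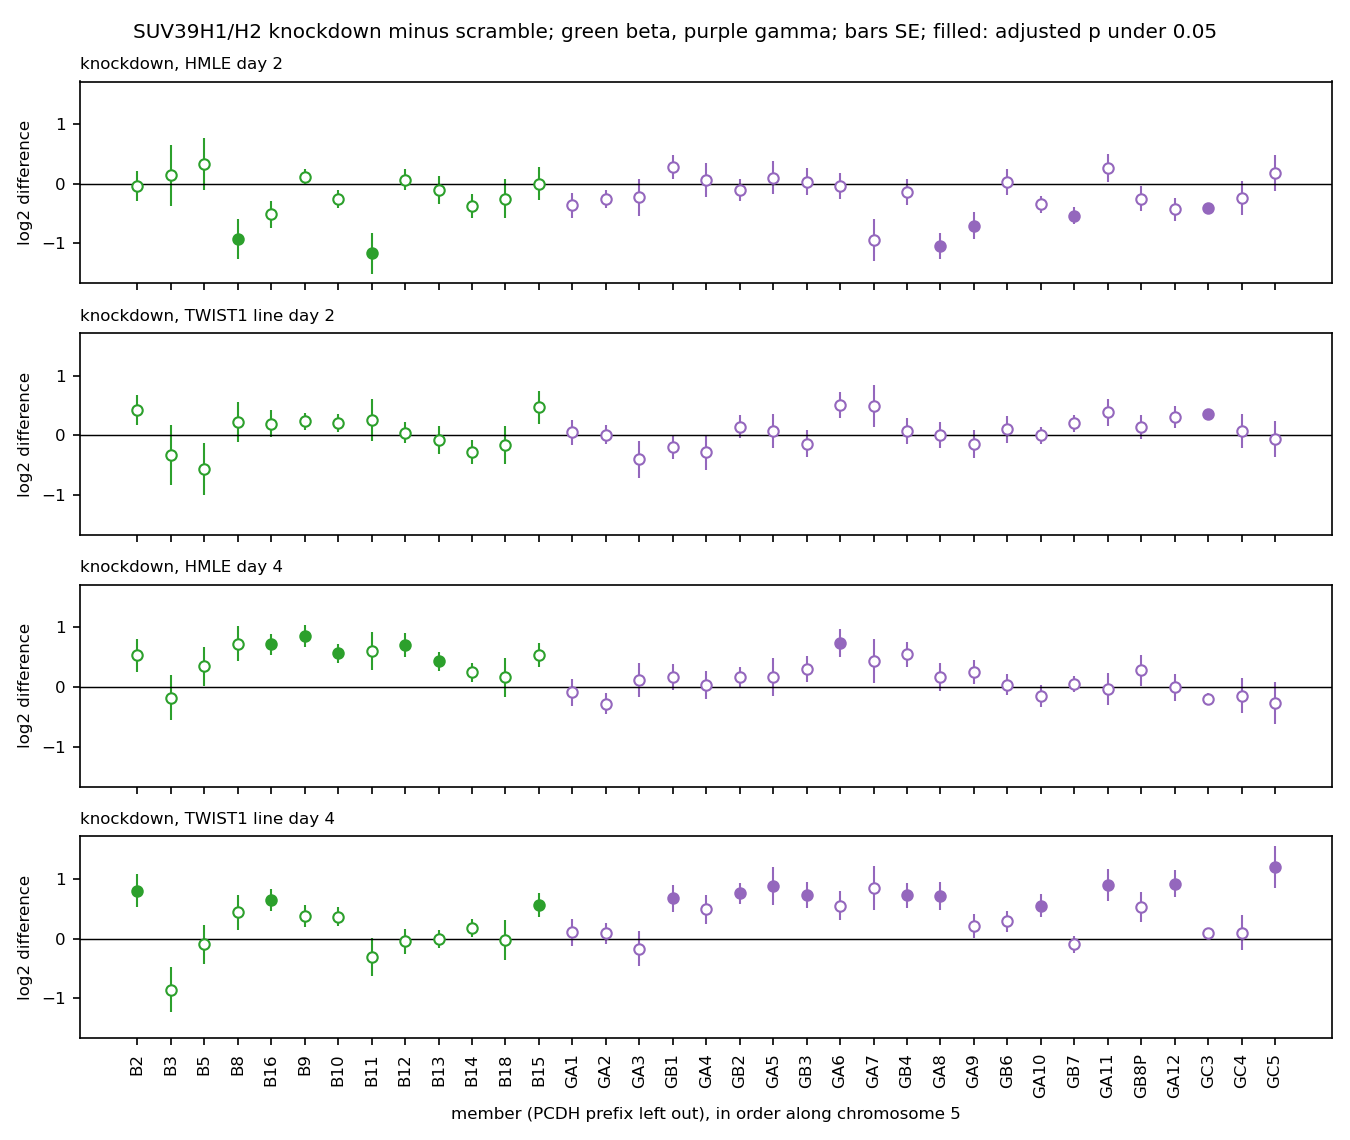
Log2 difference (SUV39H1 and SUV39H2 knockdown minus scramble) of each tested beta (green) and gamma (purple) member in chromosome order, by line and day; bars are standard errors and filled points have adjusted p under 0.05. On day 4, 6 points above 0 are filled in HMLE and 13 in the TWIST1 line.

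Both alpha members had few reads. PCDHA11 was listed in the 27 drug and DMSO libraries, with 0 to 8 reads in each, and was not tested. PCDHAC2, the alpha C-type gene known for its role in serotonergic neurons, was listed in the 24 duplex libraries. It had 0 reads in each HMLE scramble library of day 2 and 6, 3 and 7 reads in the TWIST1 line, at least 4.33-fold higher (adjusted p = 0.00039). At day 4 the TWIST1 line had 18, 14 and 8 reads against 0 in each HMLE library, at least 10.2-fold higher (adjusted p = 1.4e-06). After knockdown it had 2, 1 and 5 reads in HMLE at day 2, at least 2.42-fold above scramble (adjusted p = 0.025). In the TWIST1 line it then had 16, 11 and 13 reads (log2 1.25, SE 0.36, adjusted p = 0.027). At day 2 PCDHAC2 passed the filter only through these 3 libraries, and at day 4 only through libraries of the TWIST1 line. Its line and knockdown calls are therefore descriptions and no support for a rise. With a prior count of 0.5 the knockdown call in the TWIST1 line at day 2 was lost (adjusted p = 0.0945). Of the fits without 1 replicate that could test PCDHAC2, 4 of 6 lost the knockdown call in HMLE and 2 of 3 that in the TWIST1 line.

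Other genes of the same biology were taken from fixed lists. Their counts stand beside those of all genes tested. Between the lines in DMSO at day 2, 4535 of 18801 genes were higher and 4371 lower. At 500 nM 4889 of 18801 were higher and 4652 lower, and after washout 3412 of 17585 were higher and 3030 lower. After knockdown in the TWIST1 line on day 4, 3421 of 17985 were higher and 3411 lower. Of 12 nonclustered protocadherins 9 were listed, and in DMSO at day 2 the TWIST1 line had 3 of 5 tested higher and 1 lower. At 500 nM 0 of the 5 were higher and 1 lower (median -0.43). After washout 1 of 4 tested was higher and 1 lower (median -0.16). PCDH18, the 1 lower in both, was higher between the lines by a log2 of 4.41 (SE 0.37, adjusted p = 8.7e-08). It fell by 2.60 (SE 0.37, adjusted p = 5.0e-05) at 500 nM and by 1.03 (SE 0.15, adjusted p = 0.00021) after washout. Of 11 CTCF and cohesin genes tested, 2 were higher and 2 lower between the lines in DMSO at day 2, 1 and 2 at 500 nM, and 3 and 1 after washout, where CTCF rose by 0.46 (SE 0.07, adjusted p = 0.00011). Of 18 genes known in silencing of these promoters, 7 were higher and 2 lower between the lines, 2 and 7 at 500 nM, 4 and 5 after washout, and 4 and 5 after knockdown in the TWIST1 line on day 4. The last included SMCHD1, a silencer of the clusters, which rose by 0.82 (SE 0.07, adjusted p = 3.5e-08).

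The genes next to the clusters on 5q31 were listed in the same way. Of 14 neighbours tested, 3 were higher and 3 lower between the lines in DMSO at day 2 (median 0.11), 2 and 6 at 500 nM (median -0.24), 0 and 2 after washout (median 0.01), and 4 and 2 after knockdown in the TWIST1 line on day 4 (median 0.01). Of 15 partner and processing genes tested, which act with protocadherins at the membrane or cleave them, 3 were higher and 4 lower between the lines, 1 and 8 at 500 nM, and 1 and 5 after washout. These counts too stand beside those of all genes given for the other lists. No test set these lists against the members.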

How the data were processed

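RNA was extracted with Trizol and a column with DNase and made into stranded total RNA libraries after ribosomal depletion, per the labels' protocols. STAR, HTSeq and hg19 are named, without versions, in the submitters' processing notes. The deposited values are log2 RPKM and fall into 3 blocks of libraries with different gene sets and offsets: 12 dose libraries (23098 genes), 15 DMSO and 80 nM libraries (21700) and 24 duplex libraries (19777). Whole reads were recovered from the steps between values for 100.0% of values (largest distance from a whole number 4.2e-08). A further table has 81 columns that no name ties to a sample, and it was not used.

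Recovered reads were scaled with trimmed means of log ratios (trims of 30% and 5%). Genes needed a level worth 10 reads in 3 or more libraries and a total of 15. Group means were then fitted with limma 3.58.1 (R 4.3.3) to log2 CPM with a prior count of 2, an intensity trend and robust moderation. P-values were Benjamini-Hochberg adjusted over all genes tested, with a threshold of 0.05. Models held the 18 day 2 drug libraries, the 9 washout and day 4 DMSO libraries, or the 12 duplex libraries of a day. The 24 duplex libraries were fitted together for the day comparisons, which were added after levels were seen. The fit was tested on simulated data with changes placed only in genes of higher read counts, which does not cover members with few reads. Members and gene lists were chosen with earlier results of these data known. Named members are, for each cluster and comparison, up to 4 called members with the smallest adjusted p, the 2 with the highest RPKM and the C-type genes. Members listed because they were called in several comparisons, promoters shown and PCDHB14 in DMSO were chosen after values were seen. Replicate numbers pair the libraries only among the 4 dose groups, where deviations of same-numbered libraries correlate at 0.18 to 0.68. Sequences came from RefSeq promoters and exons from GENCODE. A promoter sequence and a marker list are not reported here. Python 3.11.15, numpy 2.4.6, pandas 2.3.3 and matplotlib 3.10.9 were used.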

Additional observations from a re-analysis of the deposited data

Results flagged for a closer look

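Among the members named in the text, 13 differences between the lines were themselves past the test. Of all members tested, 3 of 36 passed as higher for knockdown on day 2 (6.36% of all genes) and 2 of 36 on day 4 (12.2%). For the change between days 18 of 38 passed as lower (17.8% of all genes). The knockdown change on day 2 was higher in the TWIST1 line for PCDHGC3 (0.76 on the log2 scale), PCDHGB7 (0.74) and PCDHGA8 (1.06). On day 4 it was higher there for PCDHGC5 (1.48) and PCDHGA12 (0.92). The knockdown calls of PCDHGA8, PCDHGC5 and PCDHGA12 were lost in 6, 7 and 8 of 12 fits without 1 replicate. With the deposited values 0 members were called for day 4. The change of the scramble groups from day 2 to day 4 was lower in the TWIST1 line for PCDHGC3 (-1.89), PCDHGC4 (-1.86), PCDHGC5 (-2.79), PCDHGA10 (-1.47), PCDHGA12 (-1.76), PCDHGB7 (-1.11), PCDHB14 (-0.91) and PCDHB18 (-1.28). The PCDHB18 call was lost in 7 of 12 fits without 1 replicate.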

How the results depend on the processing

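Counts of called members were recomputed with other scaling, filters, prior counts, precision weights, the deposited values, a replicate block and each replicate left out. They moved by more than 1.5 times in 10 of 122 alternatives and 37 of 138 fits without a replicate. With a prior count of 0.5, 1 member was higher after knockdown in the TWIST1 line on day 2, and 1 differed between the lines on day 4, where the replicate block gave 1 and the deposited values 0. Precision weights gave 2 higher members for HMLE on day 4 and 16 lower ones for the TWIST1 line between days. For 500 against 100 nM the deposited values gave 2, the replicate block on the 12 dose libraries 8, and the fit without the first replicates of 100, 150 and 200 nM 11, while that fit gave 10 at 200 nM. The cause was not tested. The replicate block moved no other count by more than 1.5 times.

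Without 1 replicate, the members called numbered 3 to 14 at 100 nM, 5 to 15 at 150 nM, 8 to 18 at 200 nM, 16 to 22 at 500 nM, 1 to 6 for 500 against 100 nM and 15 to 20 after washout. They numbered 3 to 7 for knockdown in HMLE on day 2, 1 to 2 in the TWIST1 line on day 2, 3 to 8 in HMLE on day 4 and 9 to 12 in the TWIST1 line on day 4. Differences between the lines numbered 1 to 5 on day 2 and 0 to 5 on day 4. Between days they numbered 7 to 12 in HMLE (lowest without the third day 2 scramble replicate), 6 to 9 in the TWIST1 line (lowest without the first day 2 scramble replicate) and 14 to 18 for the difference between lines. PCDHGC3 between the lines in DMSO at day 4 ran from -0.089 to 0.14, and was -0.01 without the third TWIST1 replicate. Members with few reads, such as PCDHGC5, PCDHB5 and PCDHAC2, are limited by depth.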
